A study of Schmidtea mediterranea with 10 samples.

Results

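Cells sorted for piwi-1 transcripts were compared with cells sorted for agat transcripts in the planarian Schmidtea mediterranea, a flatworm that regrows lost body parts. The comparison used 5 of the 10 libraries of the study, namely the 1 piwi-1-positive library and the 4 agat-positive libraries, and was made over genes with a mean of 10 CPM or more across these 5. CPM is the count of a gene scaled to one fixed total of the counts assigned to genes, the same in every library. Of 36035 genes, 8256 (22.9%) met this level. All 10 libraries came from unperturbed wild-type worms of the clonal asexual strain CIW-4 (C4), starved before use, whose cells were fixed during dissociation, labelled by hybridization chain reaction and sorted by fluorescence. The agat-positive gate held cells bright for pooled probes against 3 agat genes, and the piwi-1-positive gate held cells bright for a piwi-1 probe. The worms had been divided between the labels, so no cell carried both. Each piwi-1 gate is a single library, and the label and the gate's probe cannot be told apart within the positive gates. Both negative gates, with 4 agat-negative libraries and 1 piwi-1-negative library, served as a reference for what differed between the labelled portions outside the positive gates. They are not cells that both labels left dark, since agat-negative cells were not sorted on piwi-1, nor piwi-1-negative cells on agat.

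Neoblasts are the dividing stem cells of planarians, the source of every new somatic cell, and are marked by piwi-1, which encodes a PIWI-family protein. Some of their descendants leave the cell cycle and turn into epidermis through successive stages while they move towards the body surface. Late stages are marked by the agat genes, whose namesake enzyme, an amidinotransferase, begins the synthesis of creatine. Setting the positive gates against each other therefore places a stem cell gate beside a gate of late, non-dividing progenitors of a single lineage.

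The deposited tables do not pair gene identifiers with names, so the probe targets alone carry names here, and genes of known pathways or of other cell types could not be looked up. The 5 libraries held 35081410 to 49006992 assigned counts, with the fewest in the piwi-1-positive library. Unmapped reads made up 29.67% of that library and 21.07% to 23.27% of the agat-positive libraries. The most abundant gene, SMED30027845, took 12% of assigned counts in the piwi-1-positive library and 8.5% to 9.11% in the agat-positive ones. The part of these differences in the results below was not tested. Agat-positive replicates resembled each other in pairs: the mean chi-square per gene was 10.7 between replicates 2 and 3, 37.3 between replicates 1 and 4, and 146 to 209 across these pairs. Every pair differed beyond counting noise, so none was a single library deposited again and all 4 were counted. Libraries made separately from the same cells would also differ in this way.

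The piwi-1 transcript stood above, and each agat transcript below, all 4 agat-positive libraries in the piwi-1-positive library. piwi-1 (SMED30007406) had 1267 CPM in the piwi-1-positive library (95% exact Poisson interval 1260 to 1280). It had 180, 382, 393 and 309 CPM in agat-positive replicates 1 to 4. The piwi-1 level was thus 3.22-fold that of the highest agat-positive library, and the agat gate still held piwi-1 reads in every replicate. In sorted bulk samples, more cells with a transcript and more of it per cell cannot be told apart.

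agat-1 (SMED30018353) had 128 CPM in the piwi-1-positive library (interval 125 to 132) and 1627, 305, 234 and 1564 CPM in agat-positive replicates 1 to 4. agat-2 (SMED30009513) had 135 CPM against 1479, 286, 220 and 1600 CPM, and agat-3 (SMED30019154) had 65.5 CPM against 725, 146, 119 and 643 CPM. The agat transcripts were therefore 1.82-, 1.63- and 1.82-fold lower than in the lowest agat-positive library, and 12.7-, 11.8- and 11.1-fold lower than in the highest. Replicates 1 and 4 held the highest agat levels and replicates 2 and 3 the lowest, which set a wide range on the agat side. In contrast, the piwi-1-positive library had more of each agat transcript than any agat-negative library, where agat-1 ran from 14.7 to 94.6 CPM. The piwi-1-negative library had 81.2, 101 and 46.0 CPM of agat-1, agat-2 and agat-3. It too exceeded every agat-negative library for agat-2 (at most 77.5 CPM) and agat-3 (at most 29.4 CPM), though not for agat-1. The sort used these transcripts, so their values check the gates and support nothing further.

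**Figure D1:**
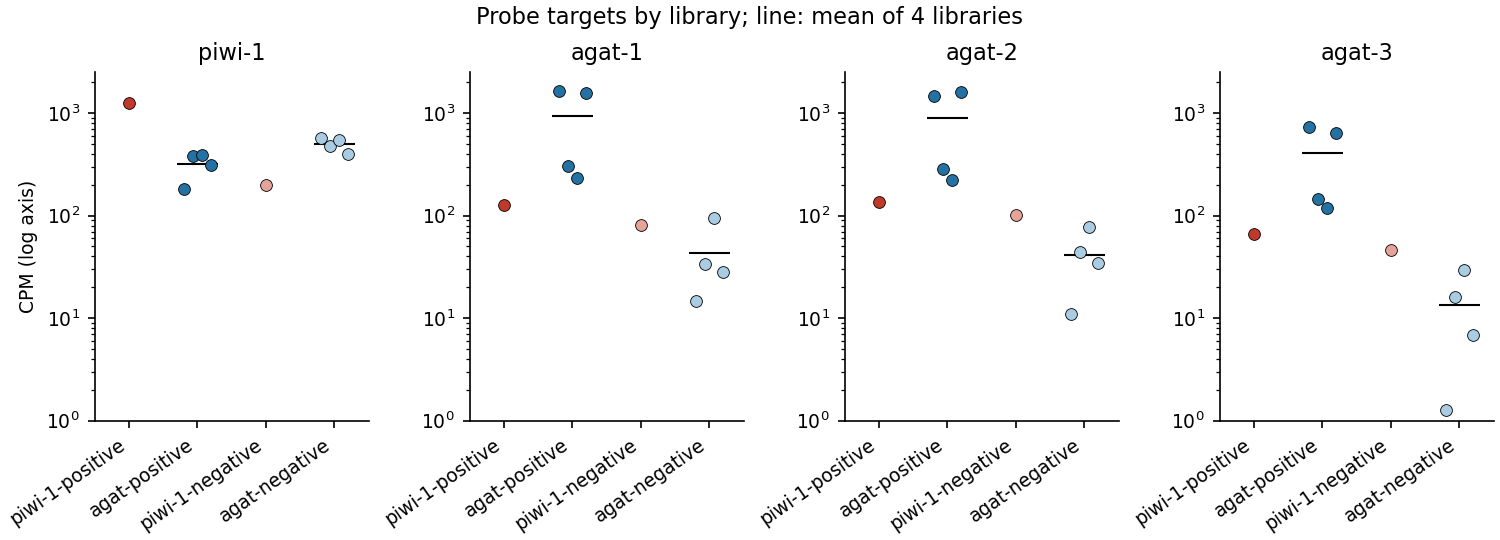
CPM (log axis) of the 4 probe targets in each library of the 4 gates; points are libraries and lines the mean of 4 libraries. piwi-1 at 1267 CPM in the piwi-1-positive library lies above all others, and each agat transcript there lies below the 4 agat-positive libraries.

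With the spread of the agat libraries, piwi-1 passed the test and the agat genes did not. The test was edgeR's two-sided quasi-likelihood test over all 10 libraries, adjusted over 29158 genes by the Benjamini-Hochberg method. On the log2 scale, the piwi-1-positive library exceeded the agat-positive ones by 1.93 for piwi-1 (SE 0.29), at an edgeR adjusted p of 0.00173. The same quantity was -3.0 (SE 1.71, edgeR adjusted p = 0.307) for agat-1. For agat-2 it was -2.87 (SE 1.69, edgeR adjusted p = 0.323), and for agat-3 -2.78 (SE 1.96, edgeR adjusted p = 0.404). Reads that mapped to several places were set apart in a row that names no gene. They made up 2.28% of the piwi-1-positive library and 2.91% to 3.14% of the agat-positive ones. Whether reads shared by related agat copies were among them was not tested. A lone library shows no spread of its own, so the test assumes that it varies like the agat libraries. An exact permutation test of 1 against 4 libraries cannot give a p below 0.2.

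Across the transcriptome, most genes of the piwi-1-positive library lay outside the agat-positive range. The library was above all 4 agat-positive libraries at 2651 of 8256 genes (32.1%) and below them at 3744 (45.3%), and it lay within their range at 1861. In the authors' TPM, a measure scaled by transcript length, the split turned to 3055 above and 2711 below, and in CPM scaled by TMM factors, which correct for RNA composition, it was 2342 and 4247. The count outside the range says little by itself, because other libraries gave similar ones. The piwi-1-negative library was outside the same range at 58.7% of genes, and agat-negative replicates 1 to 4 at 63.0%, 60.6%, 61.2% and 78.8%, against 77.5% for the piwi-1-positive library.

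The distance from the range set the piwi-1-positive library apart on the upper side. It was 2-fold or more above the highest agat-positive library, in CPM + 1, at 510 genes (6.18%). The piwi-1-negative library was that far above at 31 genes, and agat-negative replicates 1 to 4 at 32, 8, 10 and 241. At 8-fold or more, the piwi-1-positive library had 82 genes (0.993%) and the other 5 libraries had 0 to 2. At 16-fold or more it had 33 genes and each of the others 0. A gene could meet the level through the piwi-1-positive library alone. Among the 7952 genes with a mean of 10 CPM or more over the agat-positive libraries as well, the counts were 335 at 2-fold and 35 at 8-fold, where the other libraries had 8 to 231 and 0 to 2.

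On the lower side the order of the libraries was different. The piwi-1-positive library was 2-fold or more below the lowest agat-positive library at 375 genes (4.54%), and 4-fold or more at 22. At 2-fold the piwi-1-negative library had 133 such genes and agat-negative replicates 1 to 4 had 178, 108, 95 and 720, so agat-negative replicate 4 alone exceeded the piwi-1-positive library. At 4-fold the piwi-1-negative library had 27 and agat-negative replicates 1 to 4 had 94, 42, 3 and 144, so all but replicate 3 exceeded it. At 8-fold or more below, there were 4 genes in the piwi-1-positive library, 0 in the piwi-1-negative and 55, 1, 1 and 56 in agat-negative replicates 1 to 4. Which side held more genes at 2-fold depended on the scaling: in TPM there were 625 above and 246 below, and in TMM-scaled CPM 451 above and 478 below.

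**Figure D2:**
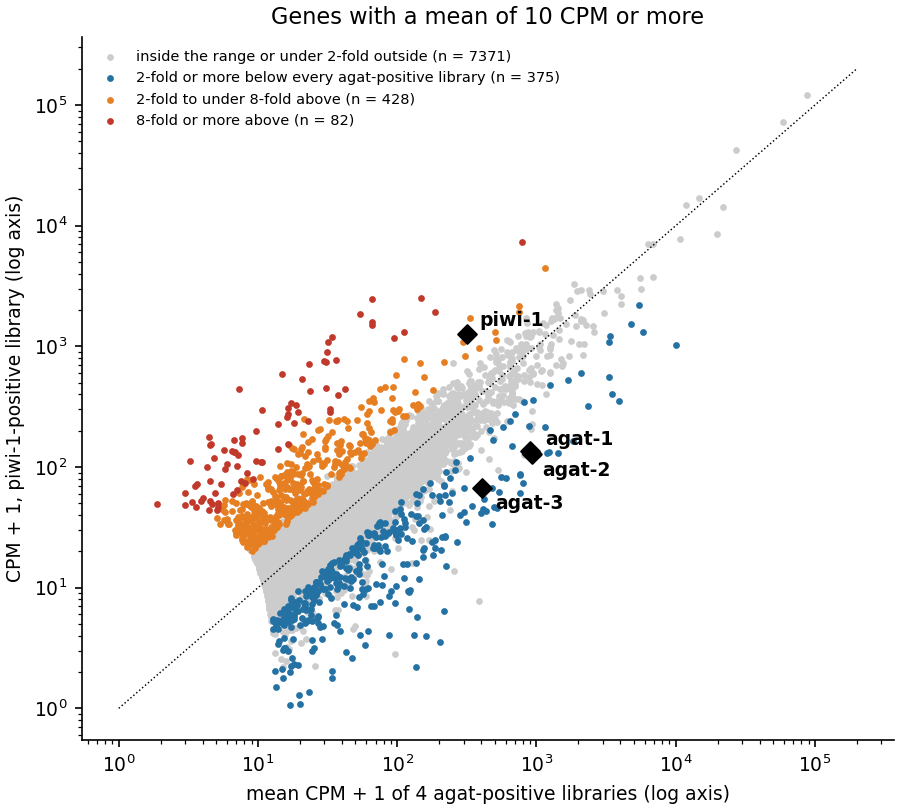
CPM + 1 of the piwi-1-positive library against the mean CPM + 1 of the 4 agat-positive libraries (log axes), 1 point per gene of 10 CPM or more; diamonds are the probe targets and the dotted line marks equal levels. Coloured points lie 2-fold or more outside the range of the 4 agat-positive libraries, 510 above and 375 below.

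**Figure D3:**
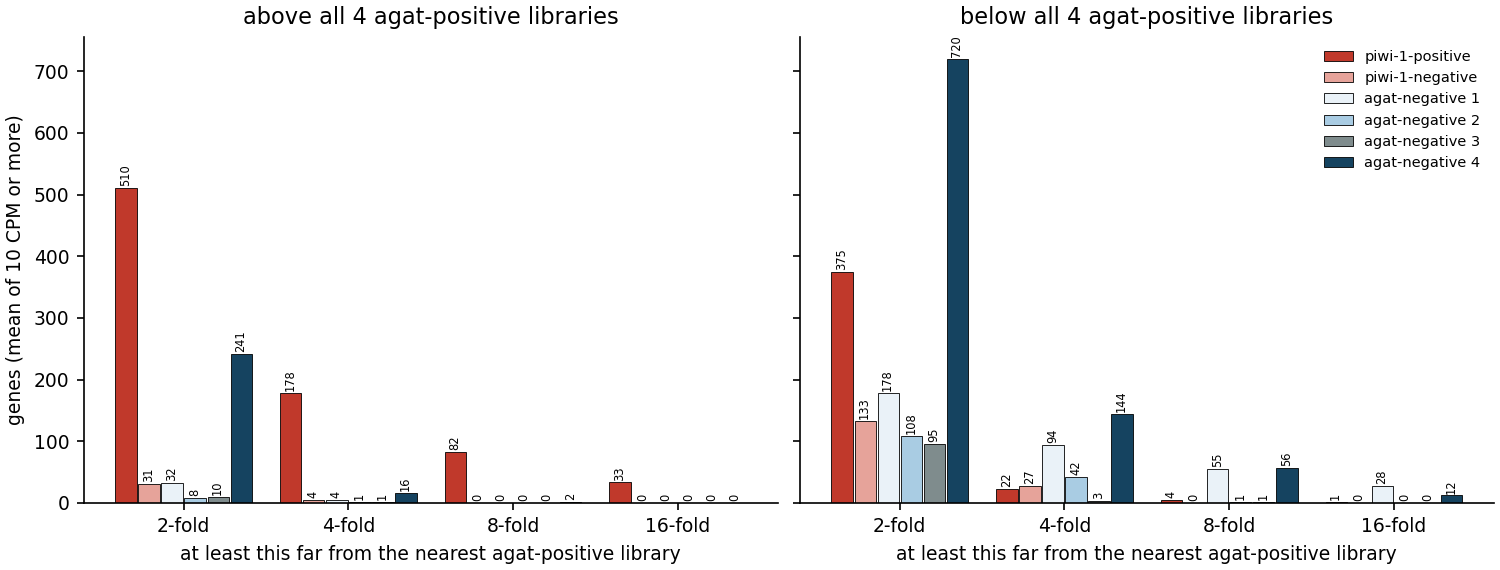
Number of genes at which each library outside the agat-positive gate lay at least 2-, 4-, 8- or 16-fold above (left) or below (right) all 4 agat-positive libraries. The piwi-1-positive library has the tallest bars above, 510 at 2-fold and 82 at 8-fold, while agat-negative replicate 4 has the tallest below at 2-fold, 720.

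Many genes exceeded piwi-1 itself in their distance above the agat-positive gate. piwi-1 lay 3.21-fold above the highest agat-positive library in CPM + 1, and 251 genes lay farther above. The farthest was SMED30009278, an unnamed gene with 445 CPM in the piwi-1-positive library (interval 438 to 452). Its levels in agat-positive replicates 1 to 4 were 6.24, 6.08, 7.57 and 5.41 CPM, all close together and 58.8-fold or more below. It also had 11.3 CPM in the piwi-1-negative library and 3.70 to 10.8 CPM in the agat-negative ones, so the piwi-1-positive library alone was high. The log2 fold change between the positive gates was 6.05 (SE 0.32, edgeR adjusted p = 1.35e-06).

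SMED30000994 came next by this distance, with 586 CPM in the piwi-1-positive library (interval 578 to 594) and 14.9, 14.1, 14.3 and 12.5 CPM in agat-positive replicates 1 to 4. It had 32.6 CPM in the piwi-1-negative library and 9.93 to 29.4 CPM in the agat-negative libraries. Here too the agat-positive libraries differed little among themselves, and the log2 fold change was 5.30 (SE 0.31, edgeR adjusted p = 1.35e-06).

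Genes 8-fold or more above the range formed an abundant block in the piwi-1-positive library. The 82 genes took 3.89% of its assigned counts, against 0.248%, 0.25%, 0.272% and 0.198% in agat-positive replicates 1 to 4. Their share was 0.431% in the piwi-1-negative library and 0.184% to 0.409% in the agat-negative ones. The 5 most abundant of them held 1.55% of the counts of the piwi-1-positive library and the others 2.34%. Their median level was 155 CPM in that library, 6.77 to 8.24 CPM in the agat-positive, 12.3 CPM in the piwi-1-negative and 6.29 to 14 CPM in the agat-negative libraries. The genes were chosen by this distance, so these shares and levels describe them and test nothing. All 510 genes that were 2-fold or more above held 9.48% of counts in the piwi-1-positive library, 1.83 ± 0.239% in the agat-positive (SD, n = 4) and 2.19% in the piwi-1-negative library. The 2141 genes above by less than 2-fold held far more, 50.6% in the piwi-1-positive library and 36.6% to 37% in the agat-positive ones, and SMED30027845 was among them.

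Genes 2-fold or more below the range followed a different course among the agat-positive replicates. The 375 genes took 2.09% of assigned counts in the piwi-1-positive library, and 13%, 6.84%, 6.24% and 12.2% in agat-positive replicates 1 to 4. Replicates 1 and 4, with the most agat transcript, thus also had the higher shares of these genes. Replicates 1 and 4 were the upper pair of the 4 at 215 of the 375 genes (57.3%), against 26.9% of all 8256 genes and 8.82% of the 510 genes above. The share was 5.51% in the piwi-1-negative library and 4.50%, 4.78%, 4.78% and 6.65% in agat-negative replicates 2, 1, 3 and 4. Within the agat-positive gate the highest library exceeded the lowest by a median of 1.68-fold at these genes, against 1.33-fold over all genes. The 375 genes were chosen by their distance below these libraries. Their shares, replicate order and spread in the positive gates therefore describe them and test nothing. The agat genes were not among the 375, since replicate 3 brought the lower end of their range to within 2-fold of the piwi-1-positive library.

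The gene farthest below was SMED30011012, with 2.57 CPM in the piwi-1-positive library (90 counts, interval 2.06 to 3.15). It had 321, 139, 105 and 240 CPM in agat-positive replicates 1 to 4, 41.1-fold or more above. Its level was 97.1, 291, 123 and 574 CPM in agat-negative replicates 1 to 4 and 19.2 CPM in the piwi-1-negative library, so both piwi-1 libraries were lower than all 8 agat libraries. SMED30008073 followed, with 3.02 CPM (interval 2.47 to 3.65) against 104, 76.8, 55.0 and 112 CPM. It likewise had 54.6 to 271 CPM in the agat-negative and 15.5 CPM in the piwi-1-negative libraries. Neither passed, at log2 fold changes of -6.41 (SE 1.75, edgeR adjusted p = 0.0618) and -4.95 (SE 1.42, edgeR adjusted p = 0.0663).

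**Figure D4:**
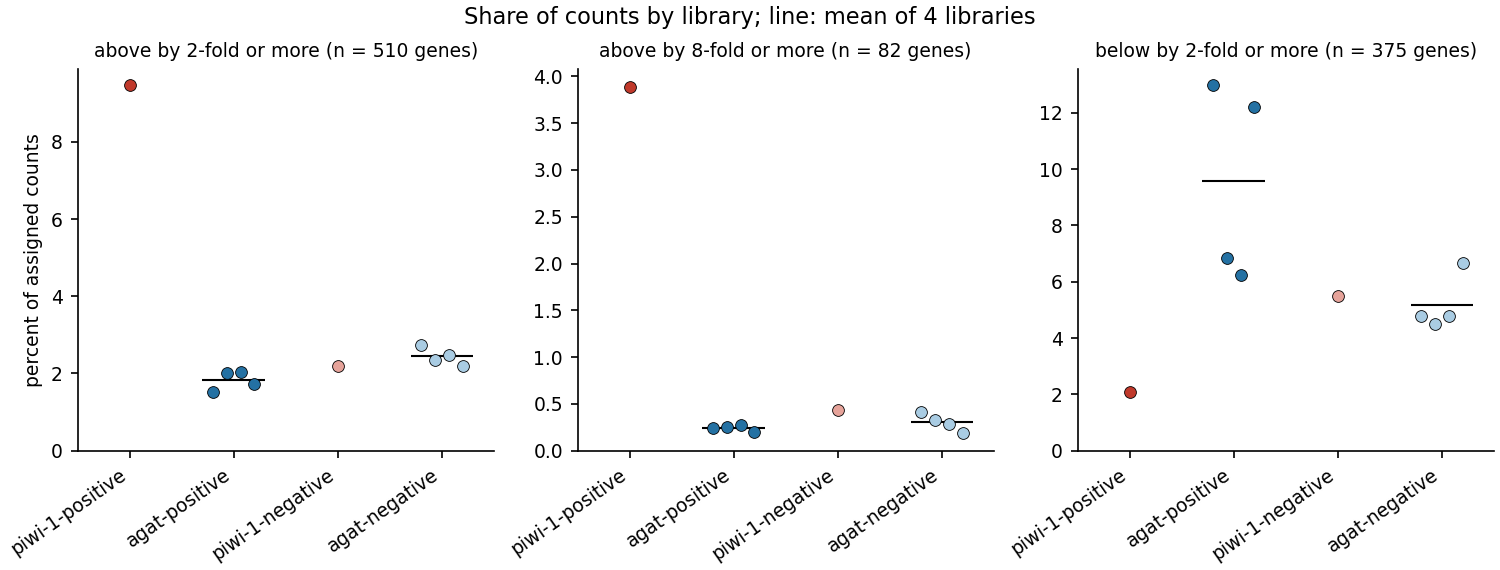
Percent of assigned counts taken by 3 sets of genes in each library of the 4 gates; points are libraries and lines the mean of 4 libraries. The genes above hold 9.48% of counts in the piwi-1-positive library and 1.53% to 2.04% in the agat-positive ones, while the genes below hold 2.09% against 6.24% to 13%. The sets were chosen by distance from the agat-positive range, so their shares in the positive gates describe them and test nothing.

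In the test across all genes, 1952 genes (6.69% of 29158) were higher in the piwi-1-positive than in the agat-positive libraries and 934 (3.20%) were lower (edgeR, adjusted p under 0.05). Of these, 604 and 490 had a mean of 10 CPM or more, and each of them lay outside the agat-positive range on the same side. The 1348 less abundant genes that rose had a median of 4.85 CPM in the piwi-1-positive library and 0.567, 0.628, 0.639 and 0.592 CPM in agat-positive replicates 1 to 4. A gene could enter this test through a lone library, the piwi-1-positive one included, and the part of this in the counts was not tested. The 604 genes held 10.3% of counts in the piwi-1-positive library and 2.34 ± 0.202% in the agat-positive (SD, n = 4). The 490 held 3.10% and 7.32 ± 0.107%. Both sets were called on these same libraries, so their shares and their place outside the range describe them and test nothing. Fitted on the 5 libraries of the positive gates alone, 3314 genes were higher and 2208 lower, and without agat-negative replicate 4 the counts were 3471 and 2736. Without agat-positive replicate 2, 3 or 4 there were 1193 to 1243 higher and 429 to 474 lower.

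The negative gates differed far less in the same test. The piwi-1-negative over the agat-negative libraries gave 5 genes higher (0.0171% of 29158) and 0 lower (0%) in edgeR, with 987 higher and 1482 lower at an unadjusted p under 0.05. DESeq2 called 28 higher and 118 lower. Of these 5 genes, 2 had a mean of 10 CPM or more, SMED30014981 and SMED30007496, the latter named after its values were seen. The call of SMED30014981 held under 4 of 15 alternatives, with adjusted p up to 0.555 in edgeR. SMED30007496 had 185 CPM in the piwi-1-negative library against 19.4 to 42.0 CPM in the agat-negative and 13.1 to 36.5 CPM in the agat-positive libraries, with 16.2 CPM in the piwi-1-positive one. By range, the piwi-1-negative library was above all 4 agat-negative libraries at 908 genes (11.0%) and below them at 2613 (31.6%), but by 2-fold or more at 9 and 52. In TMM-scaled CPM this split turned to 2826 above (34.2%) and 1212 below (14.7%).

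The negative gates share no library with the positive ones, so the genes that stood apart in the positive gates could be looked up there. The counts differed with the distance above the agat-positive range, and no test of that difference was made. Among the 332 genes from 2-fold to under 4-fold above, the piwi-1-negative library was below all 4 agat-negative libraries at 187 (56.3%) and above them at 36 (10.8%). Among the 82 genes 8-fold or more above, it was below at 0 and above at 45 (54.9%). Over all 8256 genes these shares were 31.6% below and 11.0% above. With TMM-scaled CPM in the negative gates, the 332 genes had 113 below (34%) and 62 above (18.7%), and the 82 had 0 below and 71 above (86.6%). On that scale the shares over all 8256 genes were 14.7% below and 34.2% above. The agat-positive mean was under 10 CPM for 90 of the 332 genes and 47 of the 82. Of the rest, 242 lay 2-fold to under 4-fold above, with 154 below in the negative gates (63.6%) and 21 above (8.68%). Another 35 lay 8-fold or more above, with 0 below and 24 above (68.6%). Over all 7952 genes with that agat-positive mean the shares were 31.6% below and 10.6% above. In TMM-scaled CPM the 242 had 37.6% below and 16.1% above, and the 35 had 0 below and 97.1% above. The 7952 then had 14.5% below and 34.3% above. piwi-1 was among the 332, at 200 CPM in the piwi-1-negative library and 573, 472, 545 and 398 CPM in agat-negative replicates 1 to 4. The median log2 fold change in the negative gates was 0.76 for the 82 genes, -0.21 for the 332 and 0.11 for all 8256. Their median log2 fold change in the positive gates was 4.18. The 96 genes from 4-fold to under 8-fold above stood between these groups, with 24 below (25%) and 42 above (43.8%). In TMM-scaled CPM the 96 had 20.8% below and 59.4% above. For the 375 genes below, the piwi-1-negative library was below the agat-negative range at 75 (20.0%) and above it at 50 (13.3%). The 375 were not placed in TMM-scaled CPM in the negative gates, so these shares rest on unscaled CPM alone.

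The difference between the gate comparisons was itself tested, as the fold change in the positive gates beyond that in the negative gates. The sort used the probe targets, so their values in this test check the gates and support nothing further. Overlap with the genes that passed in the positive gates was partly built into this difference, whose terms include that fold change. It passed for 310 genes in the higher direction (1.06% of 29158) and for 124 in the lower (0.425%), of which 198 and 80 had a mean of 10 CPM or more. Scaled by library size alone these counts were 504 and 61, with a median over all genes of 0.48 in place of 0.15 on the log2 scale. Of the 1952 genes higher in the positive gates, 292 also passed this test, as did 110 of the 934 lower. piwi-1 passed with a log2 difference of 2.99 (SE 0.48, edgeR adjusted p = 0.0165), while agat-1, agat-2 and agat-3 had -4.18 (SE 2.11), -4.39 (SE 2.12) and -4.83 (SE 2.51), with edgeR adjusted p of 0.321, 0.304 and 0.336. The counts ranged from 97 to 1396 higher and 24 to 1228 lower when each agat library was left out in turn, with the lowest without agat-positive replicate 4 and the highest without agat-negative replicate 4.

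The largest differences in the higher direction, among genes of 10 CPM or more that passed, were those of SMED30009278, at 5.18 (SE 0.58, edgeR adjusted p = 0.00434), and SMED30025720, at 5.09 (SE 0.65, edgeR adjusted p = 0.00729). SMED30025720 had 111 CPM in the piwi-1-positive library and 2.65, 2.56, 2.29 and 1.47 CPM in agat-positive replicates 1 to 4. In the negative gates it had 3.40 CPM in the piwi-1-negative library and 1.57 to 4.37 CPM in the agat-negative ones, an overlap of these gates. For both genes the difference thus came from the piwi-1-positive library.

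In the lower direction, the largest differences among genes of 10 CPM or more that passed involved high levels in the piwi-1-negative library. The differences of the 3 agat genes, which did not pass, were also large. SMED30002689 had 20.1 CPM in the piwi-1-positive library, and 97.7, 58.2, 58.0 and 79.8 CPM in agat-positive replicates 1 to 4. Its level in the piwi-1-negative library was 407 CPM, against 30.5, 75.8, 92.0 and 34.2 CPM in agat-negative replicates 1 to 4. The piwi-1 gates thus lay on either side of the agat gates, and the log2 difference was -5.06 (SE 0.82, edgeR adjusted p = 0.0167). SMED30014981 had 11.1 CPM in the piwi-1-positive library and 38.7, 48.9, 46.9 and 31.3 CPM in agat-positive replicates 1 to 4. It had 117 CPM in the piwi-1-negative and 26.2 to 43.7 CPM in the agat-negative libraries, and its log2 difference was -3.99 (SE 0.45, edgeR adjusted p = 0.00434).

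**Figure D5:**
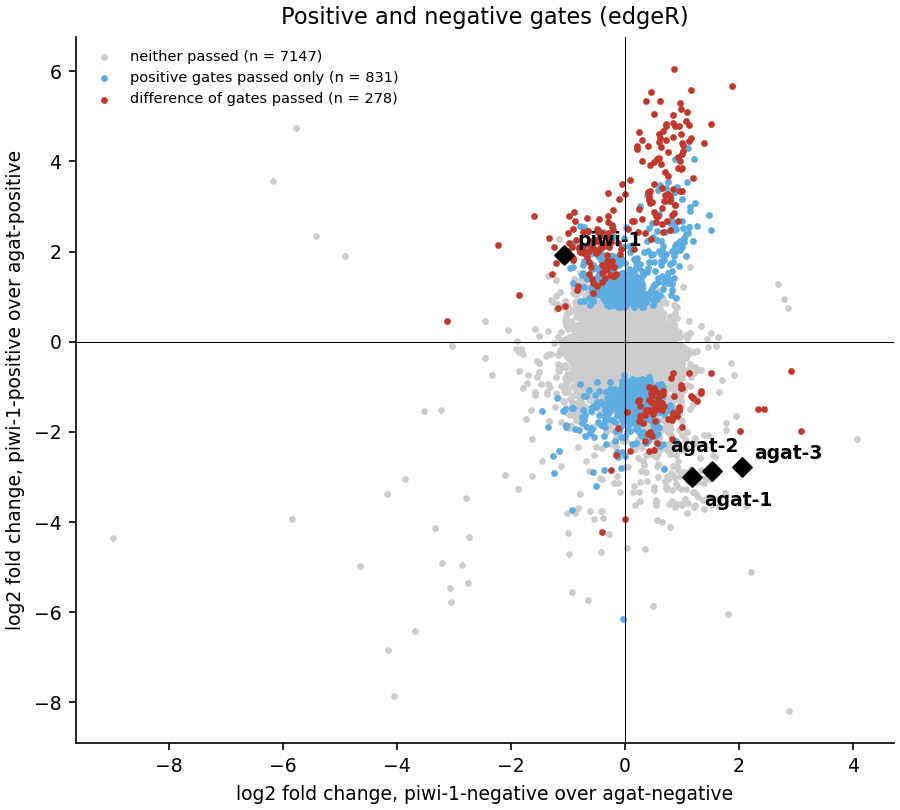
edgeR log2 fold change of the piwi-1-positive over the agat-positive libraries against that of the piwi-1-negative over the agat-negative libraries, 1 point per gene of 10 CPM or more; diamonds are the probe targets. Red points passed the test of the difference between gates (198 higher, 80 lower), and piwi-1 lies among those with a negative value in the negative gates.

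The ratio of CPM to TPM, which grows with transcript length, had a median of 1.49 for the 510 genes above, 1.21 for the 82 far above, 1.3 for the 375 below and 1.46 for all 8256 genes.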

How the data were processed

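Per the submitters' processing notes, STAR 2.7.10b and RSEM 1.3.1 were used; the sources used here give no genome build, annotation or strandedness. The authors deposited counts per gene and, separately, TPM values. Libraries were amplified by SMART-seq v4 without molecular identifiers, so intervals cover counting error only. The 4 rows that name no gene (22.8% to 36.98% of reads) entered neither library sizes nor tests. Libraries held 35081410 to 51821158 counts. Columns were matched to samples through the labels.

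The members and lists were chosen with earlier results of these data known. edgeR 4.0.16 (R 4.3.3) was fitted to the deposited counts of all 10 libraries, with 1 mean per gate, TMM factors, filterByExpr and robust quasi-likelihood, at an adjusted p under 0.05. The spread comes from the 8 agat libraries, biological replicates by their labels. Whether these came from separate cultures or worms is not given, so p-values measure the spread between these libraries. Each SE was derived as the size of the log2 value over the square root of edgeR's quasi-likelihood F statistic. Distance outside the agat-positive range used log2(CPM + 1). The named genes were the probe targets, the 2 genes farthest above and below the range, and, among genes past the test of the difference, the 2 largest differences each way. The test of the positive gates was checked on simulated counts of all 10 libraries, drawn around 1 mean per gene. In the piwi-1-positive library 200 of 29158 genes had been changed, all with a mean of 10 CPM or more. The test called 4.5% of the 67 genes set to differ 2-fold. Where the set difference was 4-fold it called 64.2% of 67 genes, and where it was 16-fold, 97.0% of 66. It also called 7 unchanged genes. Most differences near 2-fold thus went uncalled in the simulation, and a gene that did not pass may still differ. Far more genes passed in the data than were changed in the simulation, so these shares need not carry over. Alternatives were other scaling, filters, DESeq2 1.42.0, the replicate number as a block, thinning, TPM and leaving out each agat library. The piwi-1 libraries, single in their gates, could not be left out.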

Additional observations from a re-analysis of the deposited data

Results flagged for a closer look

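Among 45 groups of 4 libraries examined for a value far from the rest, 5 stood out, all in agat-negative replicate 4. About 1 in 20 separate groups would show such a value by chance. These 5 measures overlap in their genes and share that library, so this rate does not apply to them together. Agat-negative replicate 4 was below the agat-positive range at 4082 genes, while agat-negative replicates 1 to 3 were at 1092 to 1565. It lay 2-fold or more above that range at 241 genes and 2-fold or more below at 720, against 8 to 32 and 95 to 178, and 8-fold or more above at 2 against 0. The 375 genes below the range in the piwi-1-positive library took 6.65% of its counts, against 4.50% to 4.78%. Unmapped reads made up 34.51% of agat-negative replicate 4 and 21.23% to 24.49% of agat-negative replicates 1 to 3. It had 28497 genes with a count, against 30435 to 31213. SMED30027845 took 12.8% of its assigned counts, against 8.19% to 9.76%. The part of these traits in its values was not tested.

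The positive and negative gates gave different fold changes for 310 genes in the higher and 124 in the lower direction. Among the named genes the log2 differences were 2.99 for piwi-1, 5.18 for SMED30009278, 4.33 for SMED30000994, 5.09 for SMED30025720, -5.06 for SMED30002689 and -3.99 for SMED30014981, each past an edgeR adjusted p of 0.05. The sort used piwi-1, so its difference checks the gates and supports nothing further. The cause of the other differences was not tested.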

How the results depend on the processing

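No fold change of a named gene that passed changed sign, but the balance of counts above and below the range did: 2651 and 3744 became 3055 and 2711 in TPM, and at 2-fold 510 and 375 became 451 and 478 in TMM-scaled CPM. piwi-1 passed in the positive gates under all 15 alternatives (edgeR or DESeq2 adjusted p from 1.03e-05 to 0.021) and in the difference under all 14 (3.16e-06 to 0.0434), and no agat gene passed in the positive gates under any of the 15. The sort used piwi-1 and the agat genes, so these results check the gates and support nothing further. SMED30011012 and SMED30008073 passed in the positive gates under 6 and 8 of 15. At a mean of 50 CPM or more, 792 genes lay above the agat-positive range and 1269 below, 137 and 162 of them by 2-fold and 35 above by 8-fold. At 5 CPM or more, 769 lay 2-fold above, and with 10 CPM also required of the agat-positive mean (added after seeing the data, like TMM scaling in the negative gates) 335 lay 2-fold and 35 lay 8-fold above. In TPM 246 lay 2-fold below.

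Called genes are given as higher and lower. In the positive gates they numbered 1150 and 234 among genes of 10 CPM or more over the 10 libraries, 3314 and 2208 with the 5 libraries alone, and 1966 lower in DESeq2. In the difference they numbered 504 and 61 with library size only, 590 and 74 at 10 CPM or more, and 1291 and 786 in DESeq2. In the negative gates 1 was higher with library size only, at 10 CPM or more and with the 5 libraries, 28 were higher and 118 lower in DESeq2, and 1 was lower with no filter. With each agat library left out the ranges were 1193 to 3471 and 429 to 2736 in the positive gates, 0 to 6 and 0 to 2 in the negative gates, and 97 to 1396 and 24 to 1228 in the difference. With the replicate block the counts were 503 and 101, 1 and 0, and 89 and 21, and SMED30002689 no longer passed in the difference (-5.13, edgeR adjusted p = 0.105). The piwi-1 libraries carry number 1 only. Deviations of agat libraries of the same number correlated at -0.133, -0.052, -0.083 and 0.058, and not every library correlated best with its own number, so the numbers were not taken as pairs. The cause of these changes was not tested, apart from the fewer genes or libraries used.

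Each piwi-1 gate rests on 1 library, whose own spread is unknown. At the depth of the piwi-1-positive library, a gene near 3 CPM such as SMED30008073 still had 106 counts.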
